A study of Mus musculus with 6 samples.

Results

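The genes described here are the interferon-stimulated genes and immune GTPases of the mouse, 74 protein-coding genes taken by symbol from the 39089 genes of the deposited table, 21770 of which are protein-coding. The symbols cover the Ifit, Oas, Gbp, numbered Ifi and Slfn families, Isg15, Isg20 and Isg20l2, and Bst2, Cmpk2, Ddx58, Dhx58, Eif2ak2, Herc6, Ifih1, Igtp, Iigp1, Irgm1, Irgm2, Parp14, Rnf213, Rsad2, Usp18, Xaf1 and Zbp1. The rule itself reads symbols and uses no measured value. Isg20l2, known as an exonuclease of ribosomal RNA processing, is a member through its symbol. The genes were measured by poly(A) RNA sequencing in RAW264.7 cells, a macrophage-like line grown from a mouse leukaemia and labelled as wild type. All 6 samples had been given lipopolysaccharide (LPS, the endotoxin of Gram-negative bacteria) at 100 ng/mL for 48 h. For 3 of them the labels give no other treatment and do not say whether a sham exposure was made. The other 3 also received pulsed ultrasound of low intensity (LIPUS), in 2 sessions of 25 min that lay 24 h apart, with an intensity of 45 mW/cm2. Per the series' text, the question was which genes ultrasound changes in macrophages that LPS has polarised. With no samples lacking LPS, how far LPS itself had raised these genes was not measured. The labels do not say whether the samples of a group came from separate cultures, so every p-value below measures only the spread between these samples, which may be technical.

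Cells that sense microbial products through Toll-like receptors or cytosolic nucleic acid sensors make type I interferons, which leave the cell and bind the receptor pair Ifnar1 and Ifnar2. The kinases Jak1 and Tyk2 then pass the signal to a complex that holds Stat2 and Irf9 and binds a DNA motif called the interferon-stimulated response element (ISRE). Interferon gamma acts through Ifngr1 and Ifngr2 and another motif, the gamma-activated site (GAS). The genes that these signals switch on detect foreign RNA and DNA, degrade RNA, stop translation, trap budding virus and attack the vacuoles in which bacteria and parasites live. In macrophages, LPS starts this programme through Tlr4 and the adaptor Ticam1 by way of interferon beta.

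The response element is a usual feature of interferon-stimulated genes. Stretches that carry it are shown here because they are a sequence feature common among the 74 genes that the symbol rule did not use. RefSeq promoter windows of build GRCm38.p6, the same assembly as mm10, were matched by symbol for 57 of the 74 genes, and the 250 bases before each transcription start were searched on both strands. The ISRE was taken as GAAA, any 2 bases and GAAA again, and 31 of the 57 genes (54.4%) held it, against 905 of 26968 other genes (3.36%). The other genes were not limited to protein-coding ones, and a gene counted if any of its windows held the ISRE. All 5 guanylate-binding protein genes with a window held it, as did 8 of 10 genes of the p200 family and 5 of 7 of the IFIT and PKR group. In that group, Ifit1 and Ifit1bl2 lie on opposite strands and their matches are the same bases, counted for both genes. None of the 2 sensor genes or the 4 other Ifi genes with a window did. A match describes these letters only and says nothing of whether a factor binds. In 7 role groups, the most abundant gene whose match and its flanks lay outside the deposited spans of protein-coding genes is printed 5′ to 3′ on the gene's own strand. For the IFIT group only the stretch between the outermost matches is given. Capitals mark every base of an ISRE match, which reads as TTTC, any 2 bases and TTTC where the match is on the opposite strand.
Oas3: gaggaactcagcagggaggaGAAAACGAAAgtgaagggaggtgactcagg
Ifit1: TTTCACTTTCcagtctcagTTTCAGTTTC
Isg15: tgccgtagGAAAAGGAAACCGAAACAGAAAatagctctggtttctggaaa
Bst2: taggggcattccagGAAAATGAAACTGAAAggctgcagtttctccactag
Irgm1: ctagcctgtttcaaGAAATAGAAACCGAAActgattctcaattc
Gbp7: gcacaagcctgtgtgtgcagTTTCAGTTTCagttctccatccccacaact
Ifi205: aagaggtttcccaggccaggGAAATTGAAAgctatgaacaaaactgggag
Slfn8: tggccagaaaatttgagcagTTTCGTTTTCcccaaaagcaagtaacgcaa
The stretch of Oas3 lies at chr5:120777705-120777754, minus strand, that of Ifit1 at chr19:34640785-34640813, plus strand and that of Isg15 at chr4:156200855-156200904, minus strand. The stretch of Bst2 is chr8:71537567-71537616, minus strand, and Irgm1's is chr11:48871421-48871464, minus strand. Gbp7's stretch is chr3:142530263-142530312, plus strand, Ifi205's is chr1:174031860-174031909, minus strand and Slfn8's is chr11:83020829-83020878, minus strand. Isg15 held 3 matches run together and Bst2 and Irgm1 held 2 overlapping ones, so that a GAAA repeats at every sixth base.

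The GAS was taken as TTC, any 3 bases and GAA, which reads the same on both strands, and 10 of the 57 genes (17.5%) held it in the same 250 bases, against 2187 of 26968 other genes (8.11%). Both motifs stood in 6 genes, namely Bst2, Oas1a, Gbp5, Gbp7, Igtp and Irgm2. The whole window of Bst2 is shown because Bst2 was the most abundant of all 74 genes and its GAS overlaps its first ISRE. It spans chr8:71537473-71537722 on the minus strand of GRCm38.p6, and capitals mark the joined run of 1 GAS and 2 ISRE matches.
Bst2: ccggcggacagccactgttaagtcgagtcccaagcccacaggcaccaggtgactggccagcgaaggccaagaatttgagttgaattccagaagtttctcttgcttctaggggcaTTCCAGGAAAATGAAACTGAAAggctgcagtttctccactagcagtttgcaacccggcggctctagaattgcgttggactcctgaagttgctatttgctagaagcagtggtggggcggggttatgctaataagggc
Among the 57 genes searched, those that held the ISRE were not the more abundant ones. The 17 genes without a window were not searched, and Ifi27 (253 TPM), Ifi27l2a (216 TPM) and Usp18 (139 TPM) are among them. The median level was 3.78 TPM over the 31 genes with it and 8.29 TPM over the 26 without it, and the range was 0.0298 to 967 TPM with it and 0.0324 to 388 TPM without it.

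**Figure D1:**
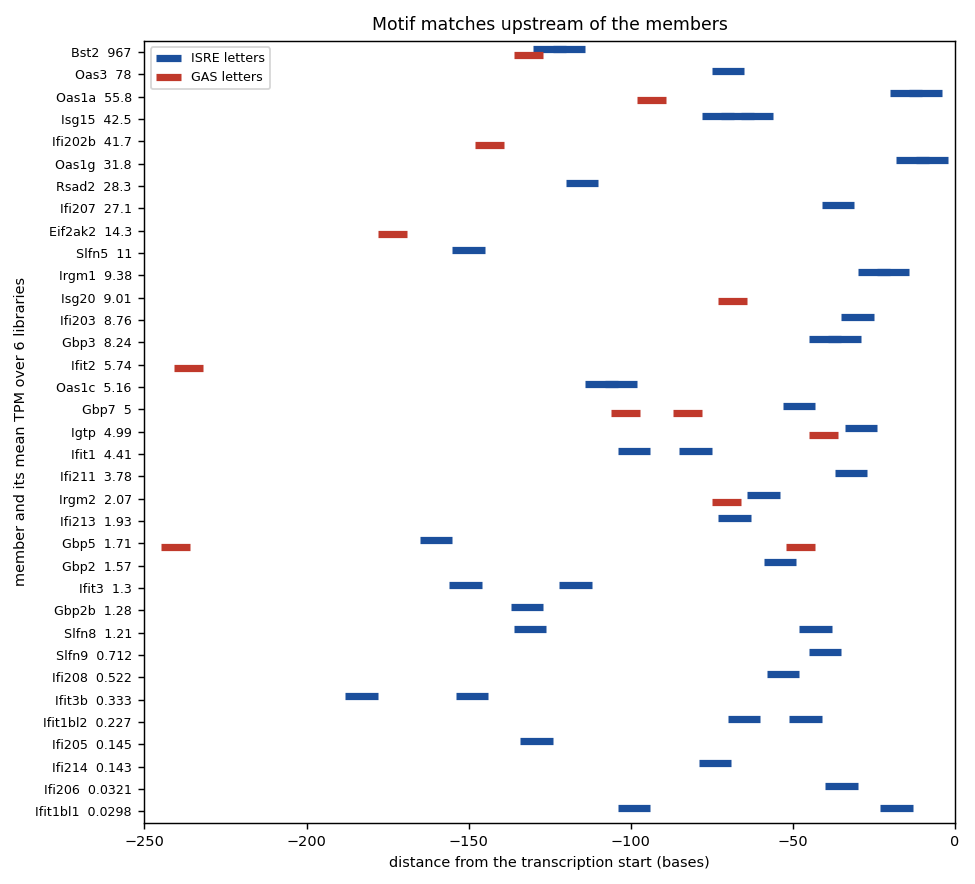
Position of each ISRE match (blue) and GAS match (red) in the 250 bases before the transcription start of the 35 genes that held either, ordered from the highest to the lowest mean level (TPM over 6 libraries, printed beside each symbol). The horizontal axis is the distance from the start in bases; most ISRE matches lie within 100 bases of the start, and Bst2 and the barely detected Ifit1bl1 both hold them.

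The libraries held 14171061 to 15956693 counts each. Of the 74 genes, 60 passed a filter on low counts, as 12571 genes of the table did, and 14 did not. The 10 macrophage markers listed were all detected and summed to 19953 to 20434 TPM with LPS alone and 19225 to 20537 TPM with LIPUS. Lyz2 gave most of that sum, with means of 15953 TPM with LPS alone and 15578 TPM with LIPUS. The lowest, Aif1, was at 5.48 and 5.50 TPM. The 20 markers of T, B and dendritic cells, neutrophils, fibroblasts and epithelium summed to 1.70 to 2.07 TPM and 1.11 to 2.09 TPM, and 7 of them had no count: Cd3g, Cd8a, Ms4a1, Col3a1, Epcam, Krt8 and Krt18. In such bulk samples, fewer cells making a transcript and less of it per cell cannot be told apart. TPM, a count divided by gene length with each library scaled to one total, serves below for levels between genes. CPM, a count scaled to library size by edgeR's TMM method, serves for differences between libraries.

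The 74 genes together made up 2938, 3029 and 2944 TPM in LPS libraries 1 to 3 and 2958, 2956 and 2937 TPM in LIPUS libraries 1 to 3, a mean of 2970 ± 50.9 TPM with LPS alone and 2950.1 ± 11.8 TPM with LIPUS (SD, n = 3). The groups overlapped. A single gene, Bst2, gave 32.7% of the sum, the first 4 genes gave 61.6% and the first 7 gave 75.1%. Over 6 libraries, 7 genes had a mean above 100 TPM, 18 lay between 10 and 100 TPM, 30 between 1 and 10 TPM, and 18 were detected below 1 TPM. Iigp1, an immunity-related GTPase that coats parasite vacuoles, had no count in any library, which allows up to 3 counts in each for counting error alone.

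Bst2, which encodes tetherin, the protein that holds budding virus on the cell surface, averaged 967 TPM and stood above all other members in each library. Ifi30, a thiol reductase of lysosomes that helps prepare antigens, followed at 388 TPM. Ifi27 at 253 TPM and its relative Ifi27l2a at 216 TPM came next, and none of these 4 overlapped its neighbour in the order over the 6 libraries. The deposited spans of Ifi27 and Ifi27l2a overlap by 6057 bases on opposite strands and the strand setting of the counting is not given, so reads of one may be counted for the other. Usp18, which strips ISG15 from proteins and restrains signalling at the interferon receptor, averaged 139 TPM. It could not be separated from Slfn2 at 136 TPM, which is needed for the quiescence of T cells and monocytes in the mouse, nor could Slfn2 from Slfn4 at 126 TPM.

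The RNA-degrading arm came below these. Oas3 averaged 78.0 TPM and Oasl1 74.7 TPM, 2 neighbours that overlapped. Oas1a was at 55.8 TPM, Oas1g at 31.8 TPM and Oas2 at 20.3 TPM. Enzymes of this family make the short oligoadenylates that switch on RNase L, while Oasl1 is known in the mouse to hold back translation of Irf7. Oas1a and Oas1g share 47.6% and 36.9% of their 75-base stretches with each other, so how their reads were divided is uncertain. Isg15, the ubiquitin-like protein joined to other proteins after interferon, averaged 42.5 TPM, below the 139 TPM of its protease. Its ligase in the mouse, Herc6, was at 4.84 TPM.

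Sensors and blocks on viral replication lay in the middle of the order. Dhx58 and Ddx58, the RNA helicases LGP2 and RIG-I, averaged 28.1 TPM and 25.0 TPM, and Ifih1, which encodes MDA5, averaged 7.57 TPM. Zbp1, a sensor of left-handed nucleic acid that can start necroptosis, was at 5.18 TPM. Rsad2 (viperin, which makes a chain-ending nucleotide) reached 28.3 TPM, while its neighbour on the chromosome and partner in that pathway, the nucleotide kinase Cmpk2, was at 2.35 TPM. Eif2ak2, the kinase PKR that stops translation on double-stranded RNA, was at 14.3 TPM. Its deposited span overlaps that of the transcribed pseudogene Gm6548 (771 counts over the 6 libraries) by 2041 bases on the same strand. How reads there were divided is uncertain. The large ligase Rnf213 averaged 30.6 TPM, the ADP-ribosyltransferase Parp14 3.44 TPM and Xaf1, a partner of an inhibitor of apoptosis, 4.10 TPM. From Eif2ak2 down, no gene stood clear of the next in the order over all 6 libraries.

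The IFIT family and the GTPases of vacuolar defence were low. Ifit2 averaged 5.74 TPM, Ifit1, which binds viral RNA caps that lack the host's methylation, 4.41 TPM, and Ifit3 1.30 TPM. The highest immunity-related GTPase was Irgm1 at 9.38 TPM, ahead of Igtp at 4.99 TPM and Irgm2 at 2.07 TPM, all 3 known as regulators of the effector GTPases. Ifi47 was at 1.29 TPM. The highest guanylate-binding protein gene was Gbp3 at 8.24 TPM, followed by Gbp7 at 5.002 TPM, Gbp5 at 1.71 TPM and Gbp2 at 1.57 TPM. Gbp2 and Gbp5 are known for attacking bacterial membranes and promoting inflammasome activation. In the p200 family, whose members bind DNA and include the sensor Ifi204, levels ran from 41.7 TPM for Ifi202b, which lacks the signalling domain of its relatives, to 0.0321 TPM for Ifi206.

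**Figure D2:**
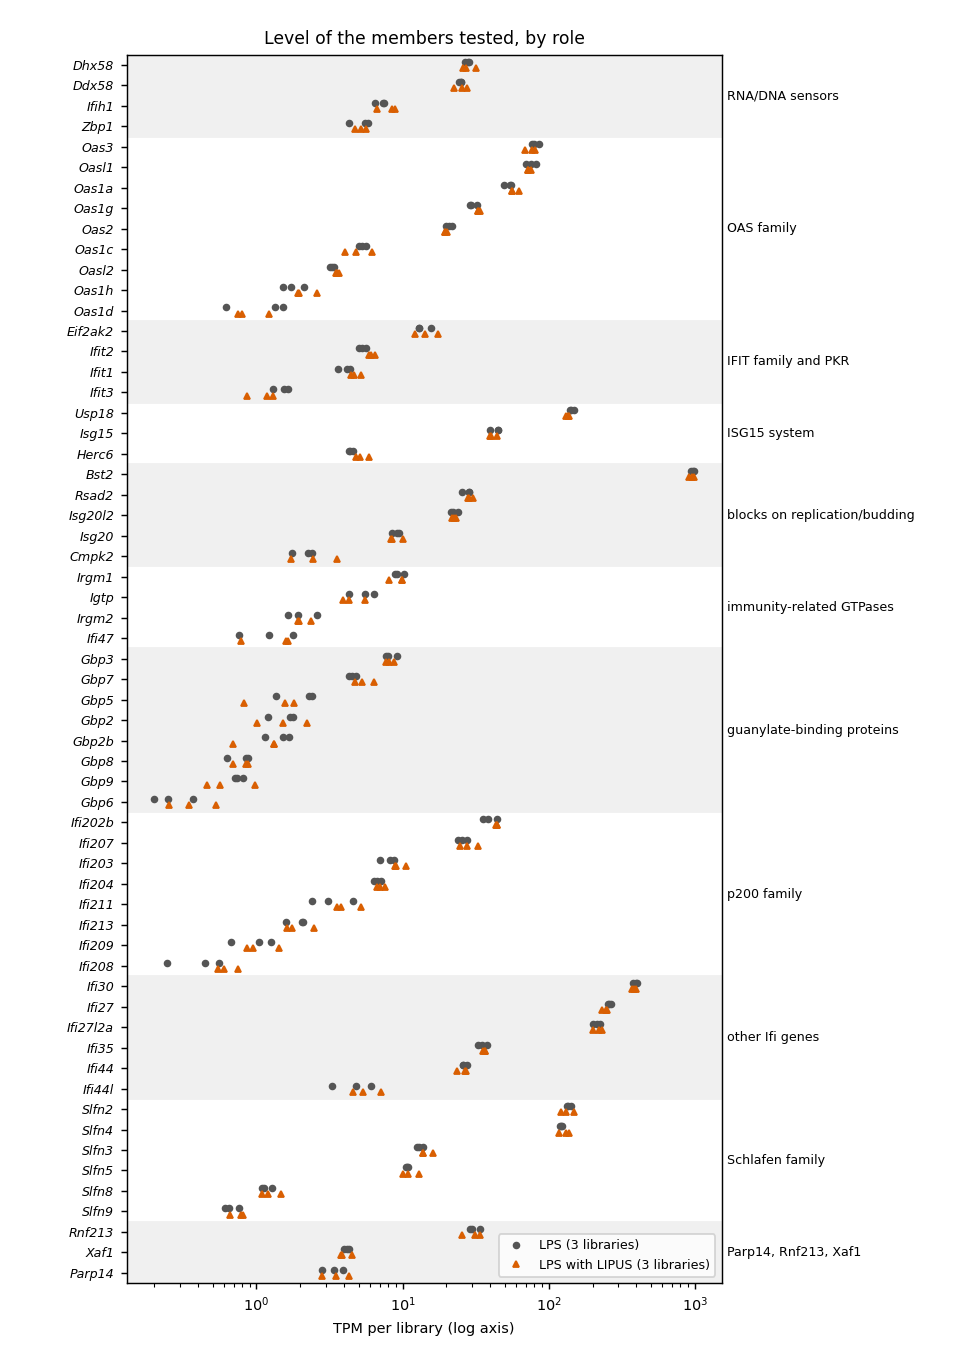
Level of each of the 60 genes that passed the filter in each library (TPM, log axis), grouped by role, with circles for the 3 LPS libraries and triangles for the 3 LIPUS libraries. Mean levels run from 0.324 TPM for Gbp6 to 967 TPM for Bst2, and within a gene the circles and triangles mostly intermix.

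Whether ultrasound changed these genes was tested with edgeR's quasi-likelihood test over all 12571 genes, with Benjamini-Hochberg adjustment over all of them. None of the 60 genes passed an adjusted p of 0.05, and neither did any gene of the table (0.0%). The smallest adjusted p among the 60 was 0.999. DESeq2 and limma-voom also called 0 of the 60, with 2 and 5 of them at an unadjusted p under 0.05. By edgeR, 5 of the 60 had an unadjusted p under 0.05 (8.33%), against 579 of 12571 genes (4.61%). Of these 5, 3 were higher with LIPUS (5.0%, against 2.99% of all genes) and 2 were lower (3.33%, against 1.61%).

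The fold changes of the 60 genes were small and lay on both sides of 0. The log2 fold change, with LIPUS relative to LPS alone, was positive for 34 and negative for 26, or 56.7% positive against 47.6% of all genes tested. Its median was 0.02, against -0.01 over all genes, and it ran from -0.57 ± 0.29 (SE) for Gbp5 to 0.58 ± 0.33 for Ifi208. The 95% interval stayed inside a 1.5-fold change either way for 44 of the 60 genes (73.3%, against 80.1% of all genes) and inside a 2-fold change for 54 (90.0%, against 92.7%). In the remaining 6, which were 3 guanylate-binding protein genes and 1 each of the OAS, IFIT and p200 families, a 2-fold change in one direction lay within the interval. Where the mean was at least 10 CPM (34 genes), the coefficient of variation over the 6 libraries had a median of 6.90% and did not pass 13.2%; over the 8605 genes of the table at that depth the median was 6.08%.

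**Figure D3:**
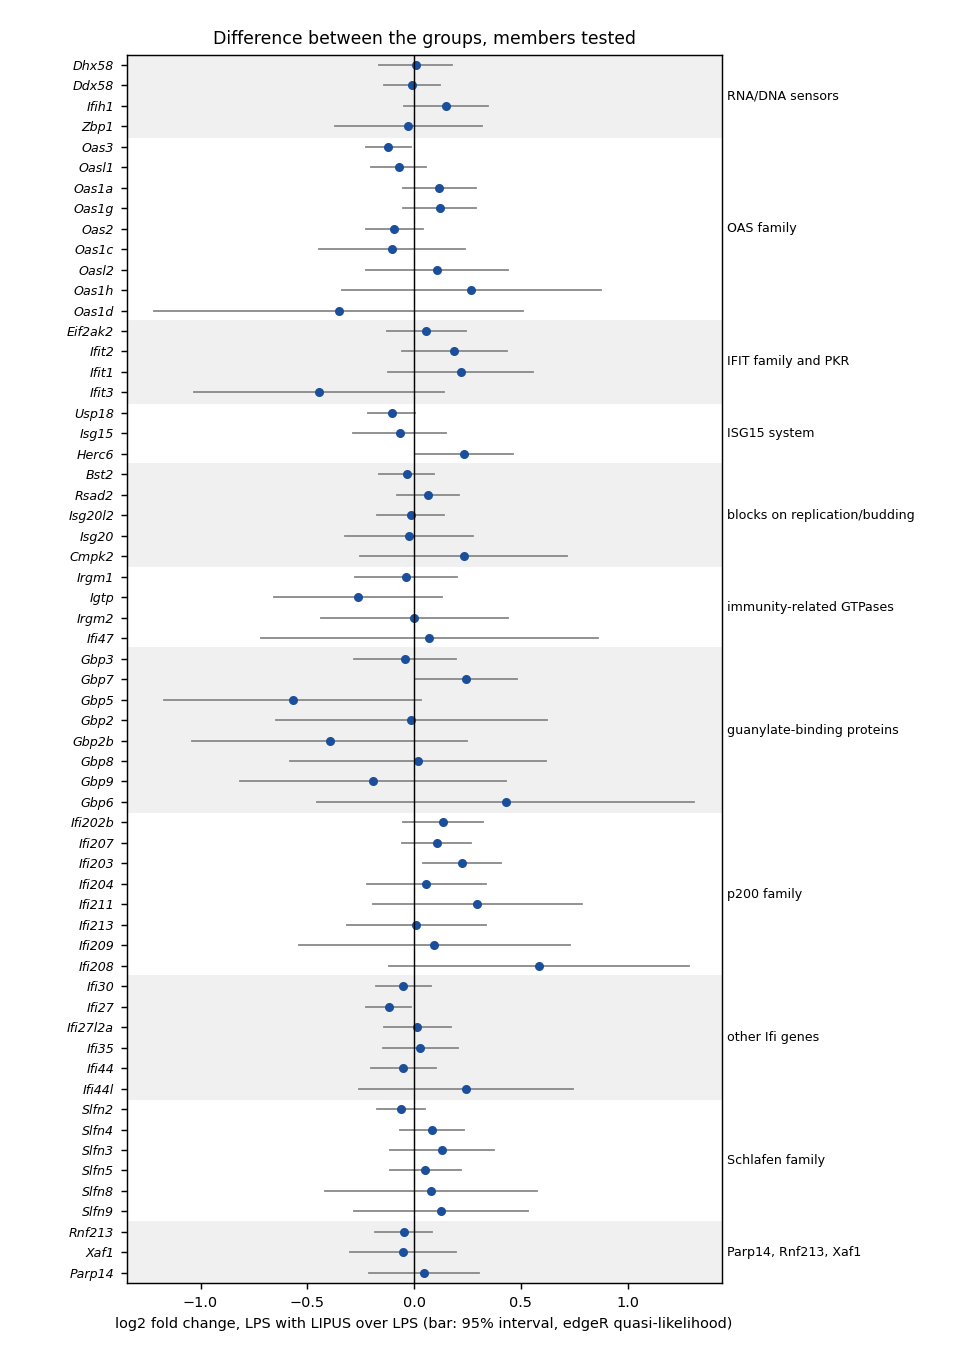
Log2 fold change, with LIPUS relative to LPS alone, of the 60 genes that passed the filter, with the 95% interval from edgeR's quasi-likelihood fit as a bar, grouped by role. Points right of the line at 0 were higher with LIPUS; all 8 p200 genes lie to the right, and the widest intervals belong to low genes such as Gbp6 and Oas1d.

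The log2 fold changes of the 4 sensors lay between -0.03 and 0.15. Ddx58 stood at 61.6, 59.0 and 58.6 CPM with LPS alone and 59.3, 56.9 and 61.9 CPM with LIPUS. Dhx58 stood at 33.3, 31.0 and 33.4 CPM with LPS alone and 29.7, 33.4 and 35.2 CPM with LIPUS. In both the groups overlapped, and the log2 fold changes were -0.01 ± 0.06 and 0.01 ± 0.08 (SE). Ifih1 had the smallest p of the 4 sensors, at 18.7, 20.6 and 20.9 CPM with LPS alone and 23.5, 19.8 and 23.5 CPM with LIPUS. LIPUS libraries 1 and 3 were its highest, but LIPUS library 2 lay among the LPS libraries, and its log2 fold change of 0.15 ± 0.09 had an unadjusted p of 0.131 by edgeR.

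Among the OAS genes, 4 of the 9 tested had a positive and 5 a negative log2 fold change. The median was -0.07, 0.02 over the 8 genes left by a filter of 1 CPM in 3 libraries, and -0.01 without LPS library 3 or LIPUS library 2. Oas3 (deposited at chr5:120753098-120777684, minus strand) stood at 187, 200.4 and 189.6 CPM in LPS libraries 1 to 3 and 179, 172 and 179 CPM in LIPUS libraries 1 to 3. Each LIPUS library lay below each LPS library. The log2 fold change was -0.12 ± 0.05 (SE), with a 95% interval from -0.23 to -0.01, and it had an unadjusted p of 0.0277 and an adjusted p of 0.999 by edgeR. Oasl1 stood at 79.1, 83.4 and 92.0 CPM with LPS alone and 79.1, 84.2 and 78.7 CPM with LIPUS. Its groups overlapped and its log2 fold change was -0.07 ± 0.06. Oas1a and Oas1g, which share sequence, had log2 fold changes of 0.12 ± 0.08 and 0.12 ± 0.08.

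In the IFIT and PKR group, 3 of 4 tested genes had a positive log2 fold change (2 of 4 without LIPUS library 3), and Ifit2 and Ifit3 had opposite signs. Ifit2 stood at 11.4, 10.54 and 12.04 CPM with LPS alone and 12.2, 14.4 and 12.2 CPM with LIPUS. Its lowest LIPUS library lay just above its highest LPS library, with a log2 fold change of 0.19 ± 0.12 and an unadjusted p of 0.124. Ifit3 stood at 1.72, 1.97 and 2.15 CPM with LPS alone and 1.496, 1.19 and 1.59 CPM with LIPUS. Its LIPUS libraries were all lower, with a log2 fold change of -0.44 ± 0.28 (unadjusted p 0.129). Ifit3 shares 41.1% of its 75-base stretches with Ifit3b, which fell below the filter at 20 counts with LPS alone and 13 with LIPUS. Eif2ak2, the kinase PKR, stood at 42.2, 49.2 and 42.1 CPM with LPS alone and 45.0, 41.4 and 52.6 CPM with LIPUS, overlapped between the groups and had a log2 fold change of 0.06 ± 0.09.

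The 3 genes of the ISG15 system did not share a sign. Isg15 itself stood at 14.8, 16.2 and 16.6 CPM with LPS alone and 15.98, 15.6 and 13.7 CPM with LIPUS, overlapping, with a log2 fold change of -0.07 ± 0.10 (SE). Its protease Usp18 stood at 122, 125 and 122 CPM with LPS alone and 116, 119 and 109 CPM with LIPUS. All 3 LIPUS values of Usp18 lay below the LPS values, with a log2 fold change of -0.11 ± 0.05 and an unadjusted p of 0.0594. The ligase Herc6 (deposited at chr6:57580992-57665136, plus strand) stood at 11.3, 11.4 and 11.1 CPM in LPS libraries 1 to 3 and 12.8, 12.97 and 14.1 CPM in LIPUS libraries 1 to 3. There the LIPUS libraries were all higher, with a log2 fold change of 0.23 ± 0.11, an unadjusted p of 0.0446 and an adjusted p of 0.999 by edgeR.

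The blocks on viral replication and budding had 2 positive and 3 negative log2 fold changes, and 5 positive ones without LIPUS library 3. Bst2 stood at 378, 384 and 382 CPM with LPS alone and 369, 411 and 339 CPM with LIPUS. LIPUS libraries 2 and 3 were its highest and lowest of all 6, so the groups overlapped, and the log2 fold change was -0.03 ± 0.06. Rsad2 stood at 53.0, 51.7 and 46.9 CPM with LPS alone and 50.6, 55.5 and 52.6 CPM with LIPUS, also overlapping, with a log2 fold change of 0.07 ± 0.07. Cmpk2 stood at 3.82, 3.94 and 2.96 CPM with LPS alone and 5.78, 3.01 and 3.80 CPM with LIPUS. LIPUS library 1 was above the rest, and the log2 fold change was 0.23 ± 0.23 with it and -0.07 without it.

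The immune GTPases gave no common direction. Of the 4 immunity-related GTPase genes tested, 2 had a positive log2 fold change, and 0 did without LIPUS library 3. Irgm1 stood at 12.02, 11.9 and 13.7 CPM with LPS alone and 12.9, 11.4 and 12.4 CPM with LIPUS, with overlap and a log2 fold change of -0.04 ± 0.11. Igtp stood at 5.53, 6.09 and 4.24 CPM with LPS alone and 3.74, 4.42 and 5.11 CPM with LIPUS, again overlapping, with a log2 fold change of -0.26 ± 0.19 (unadjusted p 0.181). Of the 8 guanylate-binding protein genes tested, 3 had a positive and 5 a negative log2 fold change, with a median of -0.03. With a library left out, 3 or 4 were positive. The median was -0.11 without LPS library 2, -0.09 without LIPUS library 2, -0.03 without LPS library 3, -0.0038 without LIPUS library 3, 0.0040 without LPS library 1 and 0.0011 without LIPUS library 1. Gbp7 (deposited at chr3:142530336-142550151, plus strand), whose upstream ISRE is printed above, stood at 13.4, 11.4 and 12.4 CPM in LPS libraries 1 to 3 and 14.1, 13.6 and 16.2 CPM in LIPUS libraries 1 to 3. Its LIPUS libraries were all above its LPS libraries, by a log2 fold change of 0.24 ± 0.11 (unadjusted p 0.0450, adjusted p 0.999 by edgeR). Gbp3, the most abundant of the family, stood at 12.1, 12.1 and 14.3 CPM with LPS alone and 11.6, 13.1 and 12.6 CPM with LIPUS, with overlap and a log2 fold change of -0.04 ± 0.11. Gbp5, beside Gbp7 on chromosome 3 and at the low end of all 60 genes, stood at 3.43, 3.43 and 2.02 CPM with LPS alone and 2.58, 1.26 and 2.14 CPM with LIPUS. Its groups overlapped and its unadjusted p was 0.0622.

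The p200 genes, which lie together on chromosome 1, were the one role group in which every tested gene had a positive log2 fold change, 8 of 8, against 47.6% of all genes. The count was 8 of 8 under the other scalings too, on TPM included, and 6 to 8 with a library left out, the 6 being without LIPUS library 3. The log2 fold changes ran from 0.01 for Ifi213 to 0.58 for Ifi208. Their median was 0.12, and with a library left out it ran from 0.10 to 0.22, the highest being without LPS library 2. The summed level of the 11 p200 genes was 91.0, 87.5 and 82.4 TPM in LPS libraries 1 to 3 and 95.6, 90.9 and 104.9 TPM in LIPUS libraries 1 to 3. The lowest LIPUS sum lay just under the highest LPS sum. None of the 8 passed the test after adjustment, and the family shares sequence: 63.6% of the 75-base stretches of Ifi211 occur in other genes, 23.1% of those of Ifi209 and 13.2% of those of Ifi204. Ifi202b shares none.

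Ifi203, a p200 gene (deposited at chr1:173920400-173942866, minus strand), had the smallest p of all 60. It stood at 31.0, 31.7 and 26.0 CPM in LPS libraries 1 to 3 and 32.2, 34.8 and 36.7 CPM in LIPUS libraries 1 to 3. Each LIPUS library was above each LPS library, with means of 29.6 ± 3.13 CPM with LPS alone and 34.6 ± 2.23 CPM with LIPUS (SD, n = 3). The log2 fold change was 0.23 ± 0.09 (SE), with a 95% interval from 0.04 to 0.41, and it had an unadjusted p of 0.0194 and an adjusted p of 0.999 by edgeR. Only 5.71% of its 75-base stretches occur in other genes. Ifi202b, the most abundant of the family, stood at 39.2, 30.5 and 33.6 CPM with LPS alone and 37.5, 39.8 and 36.1 CPM with LIPUS. Ifi207, the next, stood at 46.4, 48.6 and 43.0 CPM with LPS alone and 47.7, 46.2 and 54.7 CPM with LIPUS. In both the groups overlapped, with log2 fold changes of 0.14 ± 0.09 and 0.11 ± 0.08.

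Of the other Ifi genes, 3 had a positive and 3 a negative log2 fold change. The positive ones were 1 of 6 without LIPUS library 2 and 2 of 6 without LPS library 1 or 3. Ifi27 (deposited at chr12:103434189-103440245, plus strand) stood at 170.1, 169.6 and 163 CPM in LPS libraries 1 to 3 and 158, 158 and 148 CPM in LIPUS libraries 1 to 3. The LIPUS libraries were all lower, with a log2 fold change of -0.12 ± 0.05 (SE; unadjusted p 0.0311, adjusted p 0.999 by edgeR). Ifi27l2a, which overlaps it on the other strand, stood at 93.6, 94.9 and 86.9 CPM with LPS alone and 93.0, 105 and 80.7 CPM with LIPUS; its groups overlapped and its log2 fold change was 0.02 ± 0.07. Ifi30 stood at 195, 176 and 189 CPM with LPS alone and 172, 198 and 171 CPM with LIPUS. Its groups overlapped too, with a log2 fold change of -0.05 ± 0.06.

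In the Schlafen family, 5 of 6 tested genes had a positive log2 fold change, with a median of 0.08. Without LIPUS library 3, 3 of 6 did. Slfn4 stood at 234, 236 and 236 CPM with LPS alone and 251, 283 and 215 CPM with LIPUS. The 3 LPS libraries lay within 2 CPM of each other, while the LIPUS libraries lay on both sides of them, for a log2 fold change of 0.08 ± 0.07. Slfn2 was the negative one, at 111, 113 and 109 CPM with LPS alone and 103, 103 and 113 CPM with LIPUS, overlapping, with a log2 fold change of -0.06 ± 0.05. Of the large effectors, Rnf213 stood at 251, 279.8 and 253 CPM with LPS alone and 261, 227 and 270.0 CPM with LIPUS. Xaf1 stood at 12.8, 11.998 and 11.8 CPM with LPS alone and 12.99, 11.8 and 10.4 CPM with LIPUS. Both overlapped between the groups, with log2 fold changes of -0.05 ± 0.06 and -0.05 ± 0.12.

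**Figure D4:**
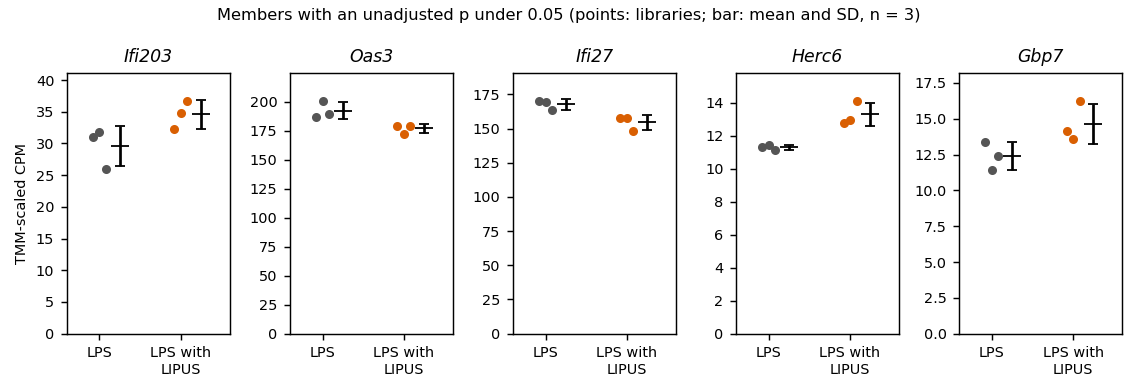
TMM-scaled CPM per library of the 5 genes with an unadjusted p under 0.05, each on its own axis from 0, with points for libraries and a bar for the mean and SD of each group (n = 3). The groups do not overlap in any of the 5, and the log2 fold changes lie between -0.12 and 0.24; none passed after adjustment (adjusted p 0.999, edgeR).

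Counted over all 60 genes, the CPM of the groups did not overlap in 8 (13.3%), against 1222 of 12571 genes (9.72%). The 4 that were higher with LIPUS (6.67%, against 5.09% of all genes) were Gbp7, Ifit2, Herc6 and Ifi203. The 4 that were lower (6.67%, against 4.63%) were Ifit3, Usp18, Oas3 and Ifi27. This even split depended on the scale. On the deposited TPM, 8 were higher (Ifit1, Ifit2, Herc6, Oas1a, Oas1g, Oasl2, Slfn3 and Ifi203) and 2 lower (Usp18 and Ifi27), against 5.46% and 2.35% of all genes (7.81% in either direction). Ifit2, Herc6, Ifi203, Usp18 and Ifi27 were in both lists, with the same direction.

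The libraries differed by gene length. Across all 12571 genes, Spearman's correlation between gene length and a gene's deviation from its mean over 6 libraries was -0.25 in LIPUS library 2 and 0.32 in LIPUS library 3, and between -0.08 and 0.06 in the other 4. Across the 60 genes it was -0.24 and 0.38 in those libraries, -0.24, 0.01 and -0.07 in LPS libraries 1 to 3, and 0.17 in LIPUS library 1. The genes are not independent points, since they share a library. The 30 shorter genes (756 to 2893 bases) had a median log2 fold change of -0.02 and the 30 longer ones (2898 to 17463 bases) of 0.06. Ifi203, Gbp7 and Herc6 are among the longer ones and Ifi27 and Usp18 among the shorter, while Oas3, at 4912 bases, was long and lower with LIPUS. Of the other p200 genes tested, all with a positive log2 fold change, Ifi207, Ifi208, Ifi209 and Ifi213 are among the longer ones. Ifi202b, Ifi204 and Ifi211 are among the shorter. The part of gene length in these differences was not tested.

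**Figure D5:**
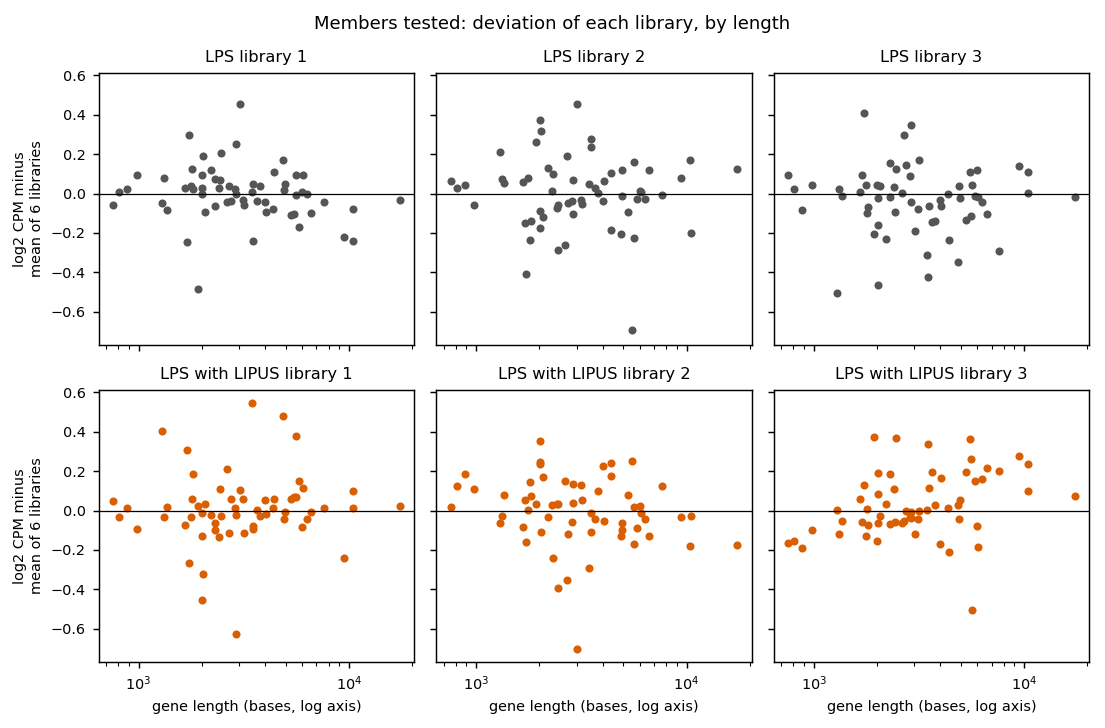
Deviation of each of the 60 genes from its mean over 6 libraries (log2 CPM), against gene length in bases (log axis), with a panel for each library. The shortest genes sit below 0 and long ones mostly above it in LIPUS library 3 (Spearman 0.38), and the tilt is opposite in LIPUS library 2 (Spearman -0.24).

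The transcript table lists 239 transcripts of the 74 genes, of which 188, from 60 genes, passed the filter. None had an adjusted p under 0.05 by edgeR (0.0% of 52257 transcripts), and the smallest adjusted p was 0.726. At an unadjusted p under 0.05 there were 21 (11.2%, against 5.38% of all transcripts), 14 of them higher (7.45%, against 3.75%) and 7 lower (3.72%, against 1.63%). A read can count for several transcripts of a gene, and 10 of the 21 belonged to Ifi203 and 4 to Ifi27. The median log2 fold change over the 188 was 0.03, within a range of -0.76 to 0.76.

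The 14 genes below the filter held few counts. Gbp10 had 12 counts with LPS alone and 22 with LIPUS, and Ifit1bl2 had 11 and 22. For Ifit1bl2 13 of the 22 came from LIPUS library 3. Gbp10 shares 77.8% of its 75-base stretches with other genes. Gbp4 had 9 and 8 counts, Ifi205, whose upstream ISRE is printed above, 4 and 6, and Ifi214, Ifi206, Ifi27l2b, Ifit1bl1, Oas1e, Oas1f, Slfn1 and Slfn14 at most 8 each over all libraries. The counts of Slfn14, a ribosome-linked endonuclease, were 0, 0 and 0 with LPS alone and 4, 1 and 1 with LIPUS. The ratio is 2.13-fold when the LPS group is set at a floor of 3 counts over the group and the 6 LIPUS counts are taken as exact. The counting error of those 6 is left out, so 2.13 is not a lower bound. Of the 6 counts, 4 came from LIPUS library 1, and the 2 left without it lie under that floor.

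In the authors' deposited table of changed genes, which holds 351 of 39089 genes (0.898%; 0.481% higher with LIPUS), 1 of the 74 appeared, Slfn14, with a log2 fold change of 4.13 and an unadjusted p of 0.0357. That entry rests on the 6 counts given above. The authors' deposited table of changed transcripts holds 623 of 84748 transcripts (0.735%; 0.395% higher with LIPUS), and 5 belong to these genes. They are 1 of Slfn14 (log2 fold change 4.13, p 0.0349) and 4 of Gbp6, with log2 fold changes of 1.03 to 1.37 and p of 0.0241 to 0.0341 in the authors' deposited table. These 4 fell below the filter and were not tested here, and a read can count for several of them. The one at 1.03 had 8, 5 and 3 counts with LPS alone and 13, 8 and 10 with LIPUS, which meet at 8. The one at 1.28 had 4, 3 and 2 and then 7, 7 and 7, and those at 1.37 had 4, 2 and 2 and then 7, 7 and 6. In these the groups did not overlap. As a gene, the counts of Gbp6 were 14, 9 and 7 with LPS alone and 18, 9 and 11 with LIPUS. The groups overlapped, and the log2 fold change from the quasi-likelihood fit was 0.43 ± 0.42 (SE), with a 95% interval from -0.45 to 1.31. It was 0.11 without LIPUS library 1, 0.26 without LPS library 3 and 0.73 without LPS library 1. Gbp6 shares 67.3% of its 75-base stretches with other genes, mostly with the predicted gene Gm43302, so its count is uncertain.

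The genes that carry the interferon signal were read from a list of 92 other pathway genes, 90 of them found and 73 tested. None passed the adjusted test, 28 had a positive and 45 a negative log2 fold change with a median of -0.01, and 4 (5.48%, against 4.61% of all genes) had an unadjusted p under 0.05. Of the 10 interferon genes found none passed the filter: Ifnb1 had 4 counts with LPS alone and 0 with LIPUS, Ifng 0 and 1, and the rest none. The receptor genes were present, Ifnar1 at 33.0 TPM, Ifnar2 at 71.7 TPM, Ifngr1 at 16.2 TPM and Ifngr2 at 169.8 TPM, with log2 fold changes of -0.06 ± 0.05, 0.04 ± 0.05, 0.05 ± 0.10 and -0.02 ± 0.06 (SE). Il10rb, the shared chain of the interferon lambda receptor, had a log2 fold change of 0.06 ± 0.09, while its partner Ifnlr1 had 2 counts with LPS alone and 0 with LIPUS.

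Among the genes given here downstream of the receptors, the log2 fold changes lay between -0.17 and 0.01. The kinases Jak1, Jak2 and Tyk2 had log2 fold changes of 0.01 ± 0.05, 0.00 ± 0.07 and -0.06 ± 0.05. Stat2 stood at 59.0, 59.5 and 56.1 CPM with LPS alone and 57.9, 58.1 and 58.6 CPM with LIPUS. Its groups overlapped, with a log2 fold change of 0.00 ± 0.06. Irf9, which directs the complex to the ISRE, stood at 33.0, 37.5 and 31.7 CPM with LPS alone and 28.7, 31.8 and 30.7 CPM with LIPUS. Its groups overlapped by a small margin, and its log2 fold change of -0.17 ± 0.08 had an unadjusted p of 0.0611 by edgeR.

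Mndal, a p200 gene that the symbol rule does not reach, had the smallest p of the 73. It stood at 19.3, 16.9 and 18.4 CPM in LPS libraries 1 to 3 and 21.6, 25.0 and 22.2 CPM in LIPUS libraries 1 to 3. The LIPUS libraries were all higher. The log2 fold change was 0.33 ± 0.09 (SE), with a 95% interval from 0.13 to 0.53, and it had an unadjusted p of 0.0023 and an adjusted p of 0.699 by edgeR. Aim2, the DNA sensor of that family, had a log2 fold change of 0.05 ± 0.06. Tap2, the peptide transporter of antigen presentation, stood at 107, 107 and 107 CPM with LPS alone and 115, 120.1 and 117 CPM with LIPUS. Its groups did not overlap either, with a log2 fold change of 0.13 ± 0.05 (unadjusted p 0.0172, adjusted p 0.966). Ddx60, a helicase tied to RNA sensing, stood at 6.17, 4.82 and 6.12 CPM with LPS alone and 7.75, 6.17 and 8.43 CPM with LIPUS, overlapping, with a log2 fold change of 0.39 ± 0.16 (unadjusted p 0.0289). Mavs, the adaptor through which RIG-I and MDA5 signal, stood at 30.1, 31.9 and 28.6 CPM with LPS alone and 24.6, 24.7 and 30.1 CPM with LIPUS. Its groups overlapped, and it was the one of the 4 with a negative log2 fold change, -0.19 ± 0.09 (unadjusted p 0.0499).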

How the data were processed

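Poly(A) RNA of 6 RAW264.7 samples was sequenced as paired ends after an NEBNext Ultra preparation, per the labels' protocols. The submitters' processing notes name bcl2fastq and mm10; the aligner, the counter, the annotation release and the strand setting were not given in the sources used here. The authors deposited raw counts per gene and per transcript, gene lengths, and TPM, a count per length scaled to a fixed total per library, per the file headers and the values. Their own comparison, also deposited, lists a log2 fold change, an unadjusted p-value and a normalised count per library (a signal) without stating the test.

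Samples were grouped by label (n = 3 each). The counts were fitted with edgeR 4.0.16 (quasi-likelihood, TMM, filterByExpr with a minimum count of 10, group as the single term, two-sided, Benjamini-Hochberg over all genes tested, threshold 0.05) in R 4.3.3, a script tested on simulated data. Total counts were 14171061 to 15956693. Alternatives were DESeq2 1.42.0, its size factors in edgeR, limma-voom (limma 3.58.1), no filter, 1 CPM in 3 libraries, the replicate block, and each library left out. No library pair was identical, and pairs within a group differed beyond sampling noise. The most unlike of all pairs was LIPUS libraries 2 and 3, with a chi-squared per degree of freedom of 9.76. Pairs of an LPS and a LIPUS library had 3.11 to 7.15, and the other pairs within a group 2.63 to 4.77. Same-numbered samples of the 2 groups had correlations of their deviations of -0.00, -0.10 and 0.00, which show no pairing. The labels do not say whether such samples share a day, so a pairing is not excluded. Intervals and floors of single counts cover counting error only.

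The members, role groups and lists were chosen with earlier results of these data known. Named are the 2 highest members of each role group by mean TPM, its smallest p, members with an unadjusted p under 0.05, and those in the authors' table; of the other pathway genes, those of the ligand, receptor and signal parts with counts and those with an unadjusted p under 0.05, except 1 gene that is not reported here. Other genes were named after their values were seen. Promoter sequences are from RefSeq (GRCm38.p6), and shared stretches of 75 bases were counted in GENCODE M21 transcripts. Coordinates of genes are the deposited ones on mm10.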

Additional observations from a re-analysis of the deposited data

Results flagged for a closer look

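Counts were present in 3 genes of the same families that are not annotated as protein-coding and so stand outside the 74. Oas1b, listed as a transcribed pseudogene, held 1221 counts over the 6 libraries, with 205, 173 and 220 under LPS alone and 211, 221 and 191 with LIPUS. Mx2, also a transcribed pseudogene in the table, held 436 counts, with 81, 63 and 78 and then 67, 88 and 59. Slfn10-ps held 293 counts, with 51, 47 and 41 and then 35, 61 and 58. In all 3 the counts of the groups overlapped. The other 3 such genes were near or at 0: Mx1 had 5 counts with LPS alone and 4 with LIPUS, Gbp11 had 0 and 3, and Slfn5os had none.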

How the results depend on the processing

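The count of 0 calls among the 60 genes, among the other pathway genes and among the transcripts of the 74 held under every alternative run. Over all genes the count rose from 0 to 31 with no filter, to 5 with the replicate number as a block, and to between 0 and 6 when a library was left out (2 without LPS library 1, 3 without LIPUS library 2, 6 without LIPUS library 3). With the replicate block, 0 of the 60 genes, 0 of the other pathway genes and 0 of the transcripts passed, the median log2 fold change of the 60 was 0.02, and 1 gene, Ifi203, had an unadjusted p under 0.05. That count was 5 by edgeR, 2 by DESeq2, 7 with no filter and 2 to 7 with a library left out. The median was 0.0537 with no filter, over 73 genes, and 0.00148 to 0.0515 with a library left out. On length-corrected counts with TMM scaling in place of TPM, the summed level was 1442 with LPS alone and 1415 with LIPUS; with a library left out the TPM sums were 2941 to 2987 and 2946 to 2957.

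Among the alternative fits, the sign of the log2 fold change turned only when a library was left out. It did so in 10 of the 27 named members tested. The ranges were -0.11 to 0.0339 for Bst2, -0.0659 to 0.42 for Cmpk2, -0.0373 to 0.0203 for Ddx58, -0.0432 to 0.0786 for Dhx58, -0.0398 to 0.14 for Eif2ak2, -0.0841 to 0.0415 for Gbp3, -0.0776 to 0.0313 for Irgm1, -0.0959 to 0.0224 for Rnf213, -0.0149 to 0.18 for Slfn4 and -0.13 to 0.0306 for Xaf1. Among the other pathway genes named they were -0.0651 to 0.0384 for Ifngr2, -0.0114 to 0.15 for Il10rb, -0.0145 to 0.0361 for Jak1, -0.0377 to 0.0705 for Jak2 and -0.0214 to 0.0195 for Stat2. The cause was not tested. The counts of signs per role group were recomputed after the data were seen: leaving out LIPUS library 3 moved 5 of 6 positive Schlafen genes to 3, 2 of 5 positive blocks on viral replication to 5, and 2 of 4 positive immunity-related GTPases to 0. On TPM, with all libraries kept, 4 of 4 sensors were positive where edgeR gave 2. The positive blocks on viral replication were then 3 of 5 where edgeR gave 2, and the counts of the other role groups stayed. Ddx58, negative by edgeR, averaged 24.9 TPM with LPS alone and 25.1 TPM with LIPUS. The 95% interval reached a 2-fold change in 6 of the 60 genes, and the part of depth in this was not tested.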
